A study of Mus musculus with 2 samples.

Results

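The troponin genes examined here are the 8 genes that encode the slow, fast and cardiac forms of the subunits of the troponin complex: Tnni1, Tnni2 and Tnni3 for troponin I, Tnnt1, Tnnt3 and Tnnt2 for troponin T, and Tnnc1 and Tnnc2 for troponin C. They were taken by symbol from the platform annotation of the array, in which each of the 8 had 1 probe set that named no other gene, out of 19938 genes named in all. The RNA was total RNA of skeletal muscle from the hindlimb of C57BL/6J males kept on standard chow, with 1 array for wild-type mice and 1 for mice with a Syn4 transgene (overexpression of syntaxin 4, a membrane fusion protein of the cell surface). The labels give neither the promoter that drives the transgene, the age of the mice, the number of mice behind each array, nor which hindlimb muscles were taken. With 1 array per genotype the spread between mice is unknown, so no difference was tested and no value has an error. All values are log2 intensities, on which a difference of 1 is 2-fold, and differences are given as transgenic minus wild type. They were deposited to 2 decimals.

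Troponin sits on the actin filament of striated muscle and makes contraction depend on calcium. Troponin C binds calcium, troponin I keeps myosin off actin at rest, and troponin T ties the complex to tropomyosin. Slow-twitch fibres, fast-twitch fibres and heart muscle use different paralogues of troponin I and T, whereas slow fibres and heart share the troponin C encoded by Tnnc1. Slow fibres are fatigue resistant and rich in mitochondria, and mouse hindlimb holds mostly fast fibres. A probe set reads its own transcript with its own efficiency, so genes are compared by their differences between the arrays, and a gene's own level is set only against the guides to background and the top of the scale.

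The labels were checked on the transgene's own gene first. Stx4a was at 8.84 in wild-type muscle and 12.20 in transgenic muscle, a difference of 3.36, so the array labelled transgenic carried the higher signal. The median was 6.06 in both arrays. Of the 9974 genes at or above the level filter of 6.79 (the median over genes of the higher of both values), the median difference was 0.03. The 95th percentile of 1027 olfactory receptor genes, which muscle is not expected to express, was 5.42 and serves as a guide to background. The 8 markers each fixed for slow and for fast fibres, troponins included, were all above the filter.

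All 3 slow troponin genes were lower in the transgenic array by close to 2-fold, all 3 fast genes were at nearly the same level in both arrays, and the pair of cardiac genes differed by less than 1.5-fold in opposite directions. Of the 8 genes, 7 were at or above the level filter, and 3 of those were lower by at least 1.5-fold (0.58 on the log2 scale) and none was higher, beside 1.71% lower and 2.66% higher among all filtered genes. Over all 8 the median difference was -0.14, against 0.00 over all 19938 genes, of which 9358 were above 0 and 9889 below. The slow genes' values of -1.01 to -0.90 did not meet the fast genes' values of -0.03 to 0.04. In tissue RNA, fewer slow fibres and less slow troponin RNA per fibre cannot be told apart. The muscles that were dissected and the genotype cannot be told apart either with 1 array each.

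**Figure D1:**
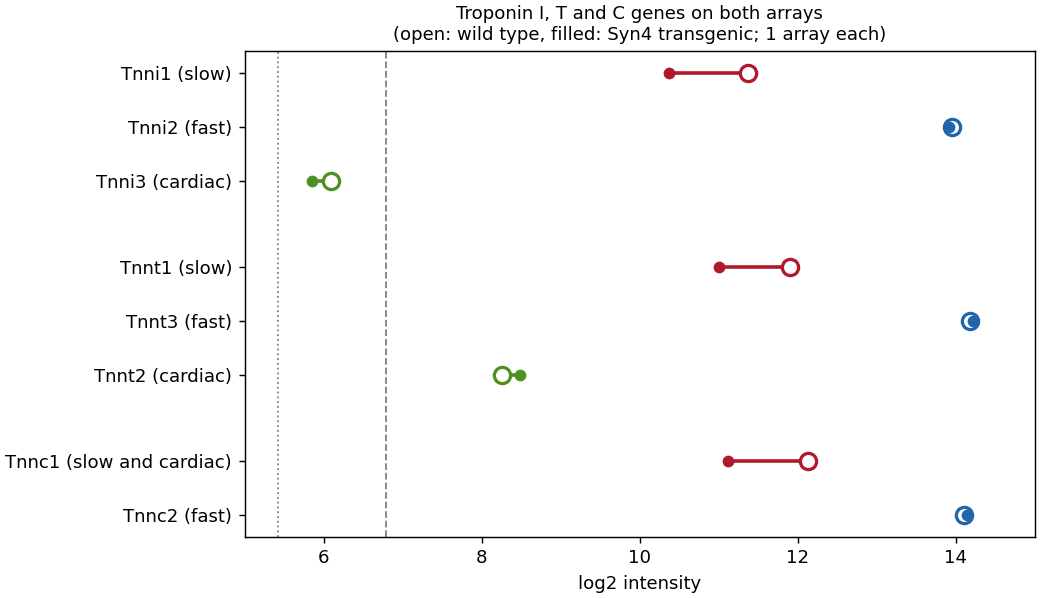
Log2 intensity (x axis) of the 8 troponin genes, grouped by subunit, on the wild-type (open circles) and Syn4 transgenic (filled circles) arrays, 1 array each. The dashed line is the level filter of 6.79 and the dotted line the olfactory receptor percentile of 5.42; the slow genes (red) shift left by 0.90 to 1.01, while open and filled circles of the fast genes (blue) nearly coincide.

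Among the slow paralogues, Tnnc1 differed most. It encodes the calcium-binding subunit of slow and cardiac muscle (probe set 10413726, chromosome 14) and was at 12.13 in wild-type muscle and 11.12 in transgenic muscle. The difference of -1.01 is 2.01-fold lower, or 49.7% of the wild-type signal. When the 500 genes closest to it in mean level were ordered with it by signed difference, Tnnc1 was the lowest of 501. The local spread of those genes, their median absolute deviation scaled to a standard deviation, was 0.21. It is a yardstick from other genes on the same arrays, and no substitute for replicate mice.

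Tnni1, the slow inhibitory subunit (probe set 10350149, chromosome 1), was at 11.37 in wild-type muscle and 10.37 in transgenic muscle. The difference of -1.0 is 2.0-fold lower and ranked 5 from the bottom of 501 genes of like level. Tnnt1, the slow tropomyosin-binding subunit (probe set 10559547, chromosome 7), was at 11.90 and 11.00. Its difference of -0.90 is 1.87-fold lower and ranked 3 from the bottom of 501. The slow subunits thus differed from each other by at most 0.11, and each difference was 4.34 to 4.87 times the local spread. At a 2-fold threshold, which 0.381% of the filtered genes passed downward, Tnnc1 and Tnni1 were counted and Tnnt1 was not. Both lay close to that threshold and were not stable against it: chosen after seeing the data, the same count under other scalings left only Tnni1 once the loess trend was removed (Tnnc1 at -0.9995), and only Tnnc1 after repeated quantile normalization (Tnni1 at -0.99).

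The fast paralogues, which carry most of the troponin of mouse hindlimb, were near equal in both genotypes. Tnni2, the fast inhibitory subunit (probe set 10559200, chromosome 7), was at 13.95 in wild-type muscle and 13.92 in transgenic muscle. Tnnt3, the fast tropomyosin-binding subunit (probe set 10559221, chromosome 7), was at 14.18 and 14.22. Tnnc2, the fast calcium-binding subunit (probe set 10489545, chromosome 2), was at 14.11 and 14.14. The differences of -0.03, 0.04 and 0.03 were each under 0.22 times the local spread of 0.19, and their signs have no weight, since removing a level-dependent trend put Tnni2 at 0.02 and repeated quantile normalization put Tnnt3 at 0.00. These genes lay 0.62 to 0.85 below the highest value of the wild-type array, 14.80. Among the 16 other genes of that mean level or above (13.94), differences ran only from -0.21 (Ldha) to 0.21 (Rn7sk) and none reached 1.5-fold, so how far a change in so bright a probe set would be compressed was not tested.

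**Figure D2:**
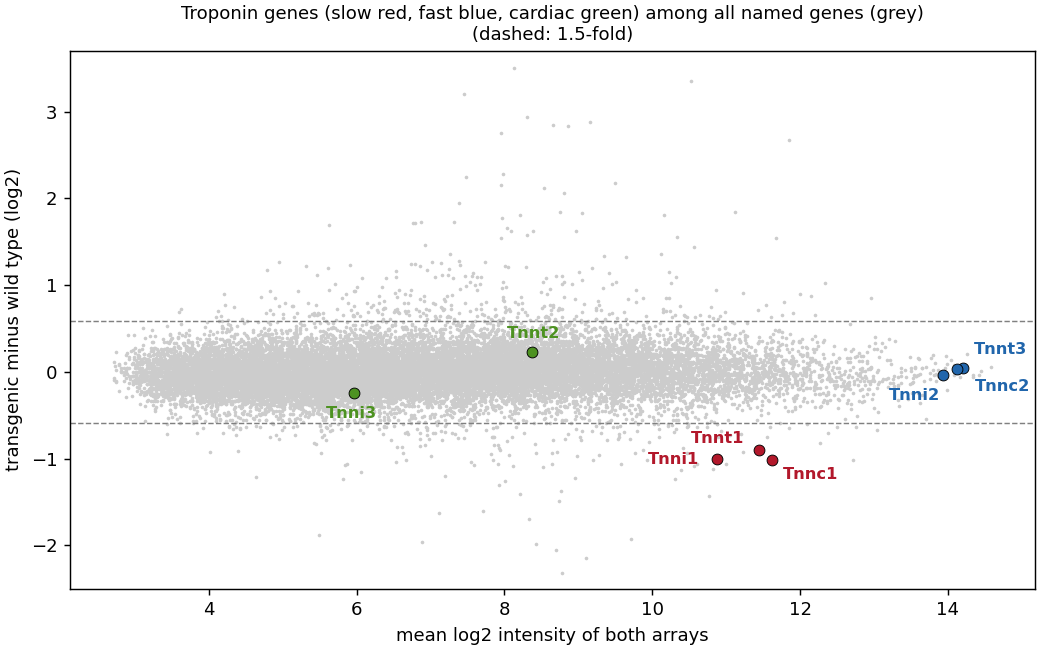
Difference between the arrays (transgenic minus wild type, log2, y axis) against mean log2 intensity of both arrays (x axis) for all 19938 named genes (grey) and the 8 troponin genes (slow red, fast blue, cardiac green); dashed lines mark 1.5-fold. The 3 slow genes lie below the lower line at -0.90 to -1.01, the fast genes at the bright end near 0, and the cardiac genes within the band.

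Promoter windows are shown for the slow genes, which differed together, and for fast Tnnc2 as a contrast. Each holds 250 bases before to 50 after a RefSeq transcript start (RefSeq, GRCm38.p6), written 5′ to 3′ on the gene's strand. Capitals mark matches, on either strand, to the E-box CANNTG (bound by myogenic helix-loop-helix factors), MCAT CATTCC (bound by TEAD factors) and the TATA box TATAAA. Windows were found for 6 of the 8 genes, without Tnni2 and Tnnt3, and the first of 2 windows is shown for Tnni1.
Tnni1 chr1:135799171-135799470 +: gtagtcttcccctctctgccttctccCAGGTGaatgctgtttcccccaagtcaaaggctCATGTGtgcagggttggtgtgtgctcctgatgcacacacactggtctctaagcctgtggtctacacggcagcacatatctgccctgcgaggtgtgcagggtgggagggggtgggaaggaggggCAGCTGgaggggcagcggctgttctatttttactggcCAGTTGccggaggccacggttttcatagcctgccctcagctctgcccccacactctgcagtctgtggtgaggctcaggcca
Tnnt1 chr7:4515926-4516225 -: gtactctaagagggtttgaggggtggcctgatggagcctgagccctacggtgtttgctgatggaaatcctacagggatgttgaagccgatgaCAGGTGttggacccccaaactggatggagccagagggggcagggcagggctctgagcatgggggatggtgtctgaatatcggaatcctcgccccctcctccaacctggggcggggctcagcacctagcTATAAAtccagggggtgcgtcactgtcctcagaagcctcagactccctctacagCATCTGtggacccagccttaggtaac
Tnnc1 chr14:31208062-31208361 +: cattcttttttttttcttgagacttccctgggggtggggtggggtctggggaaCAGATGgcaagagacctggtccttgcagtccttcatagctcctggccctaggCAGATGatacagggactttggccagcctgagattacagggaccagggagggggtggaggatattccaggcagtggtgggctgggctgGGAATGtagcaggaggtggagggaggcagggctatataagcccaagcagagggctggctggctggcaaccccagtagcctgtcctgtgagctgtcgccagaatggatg
Tnnc2 chr2:164779685-164779984 -: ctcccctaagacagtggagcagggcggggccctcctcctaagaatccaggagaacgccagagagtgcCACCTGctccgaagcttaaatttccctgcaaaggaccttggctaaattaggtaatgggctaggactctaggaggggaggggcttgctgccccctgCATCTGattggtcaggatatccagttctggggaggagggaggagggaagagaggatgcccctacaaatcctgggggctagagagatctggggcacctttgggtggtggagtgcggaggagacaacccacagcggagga
Searched by these exact letters, the slow promoters shared no motif beyond the E-box. It occurred 4 times in the Tnni1 window, and 2 times each in those of Tnnt1, Tnnc1 and the fast gene Tnnc2. All 6 genes with a window had an E-box, as did 72.3% of all 32851 windows of this length. Tnnt1 had a TATA box starting 30 bases before the start site (-30), present in 13.6% of windows. The Tnnc1 window holds the similar letters tatataag, which the search for TATAAA does not count, so a TATA-like element there is not excluded. Tnnc1 had an MCAT match on the opposite strand at -58, and cardiac Tnnt2 had one at -27, against 14.7% of windows. No window of the 6 genes held TGATAA, a motif of the GATA family that 9.05% of windows held. Nor did any hold the MEF2-like motif, searched as an inverted repeat of CTA around any 4 bases, which 3.69% of windows held. Both searches counted only these letters, so other forms of a GATA or MEF2 element in the windows are not excluded. The matches did not overlap each other. They are letters in a short window and say nothing of which factors bind.

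Of the cardiac paralogues, only Tnnt2 was above the level filter. Tnnt2, the cardiac tropomyosin-binding subunit, which immature skeletal muscle also makes (probe set 10350173, chromosome 1), was at 8.26 in wild-type muscle and 8.49 in transgenic muscle. Its difference of 0.23 is 1.17-fold higher and ranked 89 from the top of 501 genes of like level. Tnni3, the cardiac inhibitory subunit (probe set 10559558, chromosome 7), was at 6.09 and 5.85, under the level filter in both arrays and 1.18-fold lower. Both differences were 1.15 to 1.20 times a local spread of 0.20, well within what many genes of their level showed. Of 18 heart marker genes, 6 passed the filter and 5 were under the olfactory receptor percentile in both arrays, among them Ryr2, the heart calcium release channel, at 5.28 and 5.27. The list's median difference was -0.16, from Myh6 (-0.67), a cardiac myosin heavy chain, to Kcnj3 (1.72), a potassium channel subunit. Kcnj3 passed the level filter through the transgenic array only. Summed on the linear scale and returned to log2, the list was at 12.06 in wild-type muscle and 11.92 in transgenic muscle. The sum rests mostly on Sbk2 (10.21 and 10.01), Myl4 (9.88 and 9.72) and Trim55 (9.87 and 9.69). Myl4 is also in the list of embryonic fibre genes used below.

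Set within each subunit, the slow-to-fast ratio was lower in the transgenic array by nearly the same amount in all 3. For troponin I the difference of Tnni1 minus that of Tnni2 was -0.97, so the ratio was at 51.1% of its wild-type value. For troponin T (Tnnt1 and Tnnt3) the shift was -0.94, or 52.1%, and for troponin C (Tnnc1 and Tnnc2) it was -1.04, or 48.6%. A scaling that adds the same amount to every gene of an array cancels in such a ratio, and over the scalings that depend on level the 3 shifts ran from -1.08 to -0.91. A shifted ratio shows unequal change of its members, and does not show that the fast genes were unchanged. The cardiac gene of troponin T shifted by 0.19 against the fast one (Tnnt2 and Tnnt3) and by 1.13 against the slow one (Tnnt2 and Tnnt1). For troponin I the same shifts of Tnni3 were -0.21 and 0.76, but with Tnni3 under the level filter in both arrays these values cannot be read as changes in ratio. The Tnnt2-to-Tnnt1 ratio was therefore 2.19-fold higher, with Tnnt1 at -0.90 and Tnnt2 at 0.23.

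The same comparison was made in 8 other pairs of slow and fast paralogues of the sarcomere and the calcium stores. All 8 ratios were lower in the transgenic array, with a median shift of -0.66. These pairs were chosen with results of these data known, so their common direction lends no independent support. The light chain pair Myl3 and Myl1 shifted by -1.11, and the myosin heavy chain pair Myh7 and Myh4 by -0.90. Among the 8, only the light chain pair shifted more than the troponin T pair, the smallest of the troponin shifts. The regulatory light chains (Myl2 and Mylpf) shifted by -0.72, tropomyosin (Tpm3 and Tpm1), the partner of troponin T on the filament, by -0.68, and the calcium pumps (Atp2a2 and Atp2a1) by -0.64. The M-band pair Myom3 and Myom2 shifted by -0.46. The calcium store pair Casq2 and Casq1 (-0.20) and the Z-disc pair Myoz2 and Myoz1 (-0.18) shifted least.

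**Figure D3:**
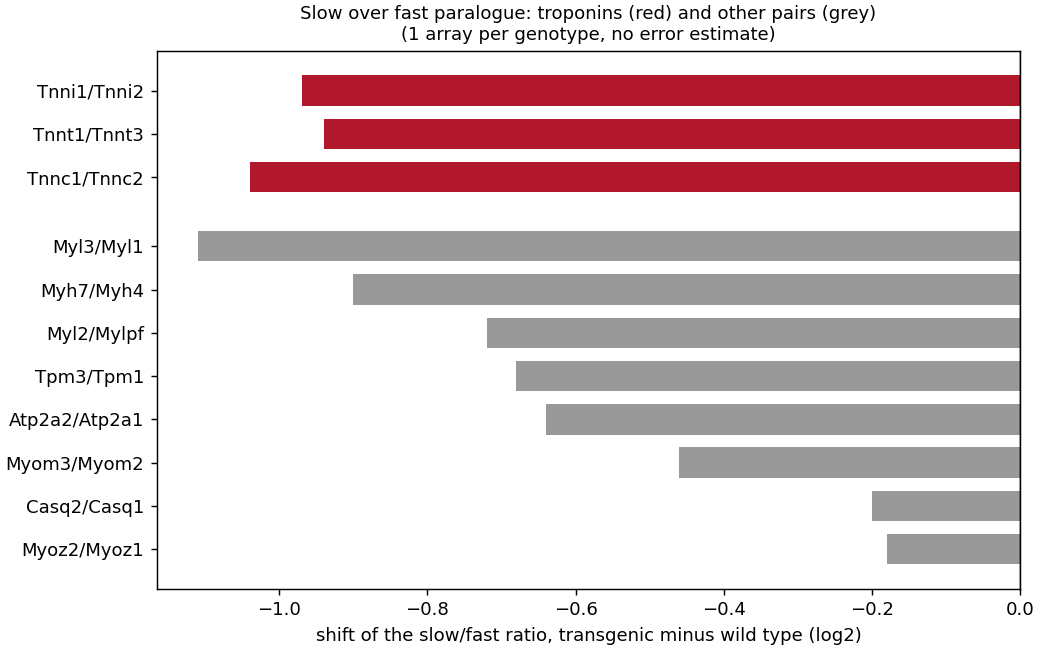
Change in the slow-to-fast ratio (transgenic minus wild type, log2, x axis) for the 3 troponin pairs (red bars) and 8 other slow and fast pairs (grey bars, ordered by size), from 1 array per genotype with no error estimate. The troponin bars reach -0.94 to -1.04; of the others, Myl3/Myl1 reaches further, at -1.11, and Myoz2/Myoz1 is shortest, at -0.18.

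The troponin I and T genes lie close together in the genome, so linked paralogues could be compared. In the RefSeq table of GRCm38.p6, which held all 8 genes by Entrez identifier, slow Tnnt1 and cardiac Tnni3 are direct neighbours on chromosome 7, fast Tnni2 and Tnnt3 lie on the same chromosome with Lsp1 and Prr33 as the measured genes between them, and slow Tnni1 and cardiac Tnnt2 flank Lad1 on chromosome 1. Slow Tnni1 was at -1.0 near cardiac Tnnt2 at 0.23. For the other slow and cardiac couple, Tnnt1 was at -0.90 beside Tnni3 at -0.24, but Tnni3 was under the level filter in both arrays and too dim to show whether it shared the difference. The fast couple was near 0 on both sides. None of the 13 other measured genes next to a troponin gene reached 1.5-fold, and 8 of them passed the level filter. With 1.71% of filtered genes lower and 2.66% higher by that fold, this count is no result about the neighbours. Their differences ran from -0.28 (Ube2c, beside Tnnc2) to 0.31 (Pkp1, beside Tnnt2), both under the level filter. Next to the slow genes, Phlda3 was at 0.11 and Lad1 at 0.01 around Tnni1, but Lad1 was under the level filter in both arrays. Ppp1r12c was at -0.06 beside Tnnt1, and Nisch at -0.07 and Sema3g at 0.09 lay around Tnnc1. The annotated spans of Tnnt3 and Prr33 (0.09) overlap, so the signals of these genes may not be fully separate.

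Genes that differed most like the slow troponins were looked up outside the troponins among the 2108 genes with a mean level of 10 or more, of which 2.32% were lower by at least 1.5-fold. The likeness is the gap between signed differences, over 2 arrays. Ordered from the lowest difference, with the troponins kept in, Tnnc1 ranked 9, Tnni1 10 and Tnnt1 13. For Tnnc1 and Tnni1 the nearest gene outside the troponins was Myl3, the slow essential myosin light chain (-1.02), with a gap of 0.01 and 0.02. Pfkfb3, which makes an activator of phosphofructokinase (-1.06), was among the nearest 3 of both, beside Tpbgl (-1.06) for Tnnc1 and Gpx3, a secreted glutathione peroxidase (-0.94), for Tnni1. For Tnnt1 the nearest were Ldhb (-0.92), the lactate dehydrogenase subunit of oxidative tissue, Tmem267 (-0.88) and Gpx3. The likeness compares 1 difference per gene, from 1 array per genotype, so it carries little.

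The other markers of slow fibres differed less evenly than the troponins. Of 18 slow-fibre genes outside the troponins, 13 were below 0, and of the 17 that passed the filter 6 were lower by 1.5-fold and none was higher. Their median was -0.19. Among all filtered genes, 1.71% were lower and 2.66% higher by at least 1.5-fold. Myl3 and Myh7 (-0.82), the slow myosin heavy chain, came nearest to the troponins. Atp2a2 (-0.67) and, at -0.63 each, Csrp3, Myl2 and Tpm3 were the others past 1.5-fold. Mb, the oxygen store myoglobin, was at 13.92 in both arrays and Smpx was at 0.03. Sln, the calcium pump regulator sarcolipin, was at 0.95 but under the filter. Of 18 fast-fibre genes outside the troponins, 10 were above 0 and 7 below. Their median of 0.02 turned to -0.005 with the arrays centred on their medians. Mybph, a myosin-binding protein, was the only one past 1.5-fold (1.08), and Myoz1 was lowest (-0.24). In the shorter list of 8 slow-fibre markers, which includes the 3 slow troponins, all 8 were lower by 1.5-fold, with a median of -0.86. In that of 8 fast-fibre markers, 3 of them troponins, none reached 1.5-fold and the median was 0.035. These lists too were chosen with earlier results known.

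**Figure D4:**
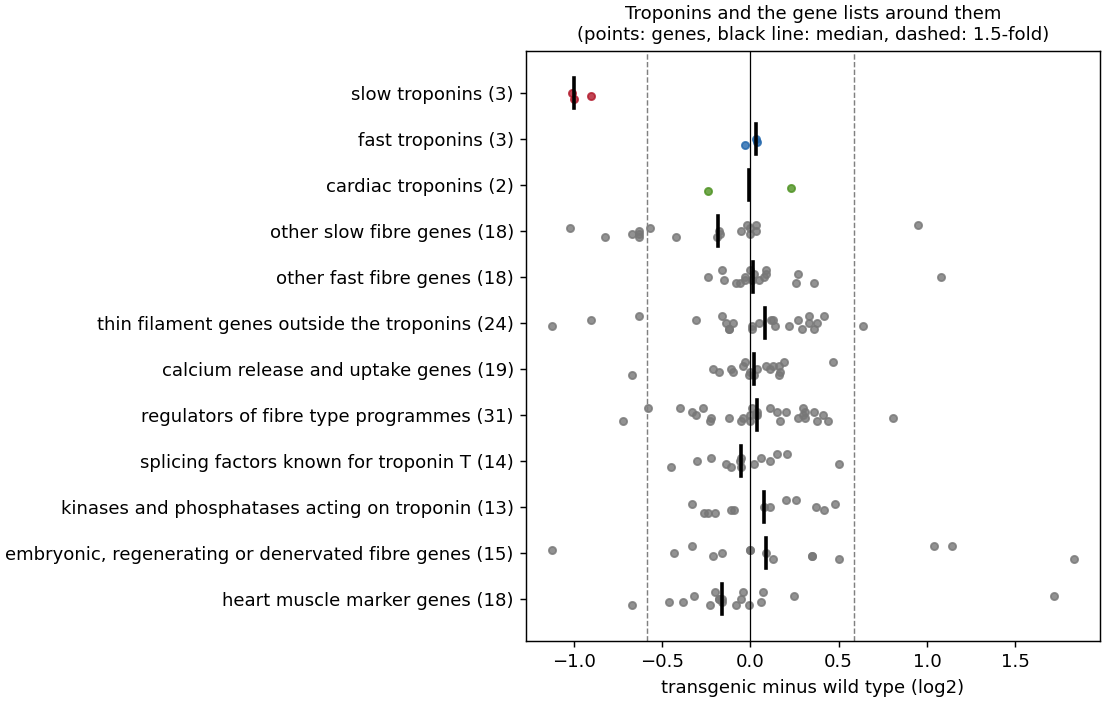
Difference between the arrays (transgenic minus wild type, log2, x axis) of each gene (points) in the slow, fast and cardiac troponin groups and in 9 gene lists, with the median as a black line, the number of genes in brackets and 1.5-fold as dashed lines. The slow troponins cluster at -0.90 to -1.01, whereas the other slow-fibre genes spread from -1.02 to 0.95 around a median of -0.19. The gene at 0.95, Sln, was under the level filter in both arrays.

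Partners of troponin on the thin filament did not move as a group. Of 24, 15 were above 0 and 9 below, with a median of 0.09. Actc1, cardiac actin, was lowest, at 11.38 in wild-type muscle and 10.26 in transgenic muscle (-1.12). Kbtbd13, a BTB and Kelch protein of muscle (-0.90), and Tpm3 also passed 1.5-fold downward, and Xirp1, an actin-binding repeat protein, passed it upward (0.64). Thus 3 of the 24 were lower and 1 higher, beside 1.71% lower and 2.66% higher among all 9974 filtered genes. Of those filtered genes, 5332 were above 0. Acta1, the main actin of skeletal muscle, was at 0.01, and Tpm2, which slow and fast fibres both use, at -0.31. The slow troponins therefore lay with Actc1 and Kbtbd13 at the low end of the filament genes, and the fast troponins lay near Acta1 and Tpm1 (0.05). Acta1, Tpm1 and Tpm2 were picked for naming after their values were seen.

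Lists were also fixed for genes that feed calcium to troponin and genes that act on it. Of 19 genes of calcium release and uptake, 10 were above 0 and 8 below, with a median of 0.02. Atp2a2 was the only one past 1.5-fold, and Cacng1, a subunit of the voltage sensor, was highest (0.47). Of 13 kinases, phosphatases and proteases that can act on troponin, none reached 1.5-fold, from Tnni3k (-0.33, under the filter), a kinase known to bind cardiac troponin I, to Prkce, a protein kinase C (0.48). Of 14 splicing factors, several of which are known to choose troponin T exons, none reached 1.5-fold either, from Celf4 (-0.45, under the filter) to Rbm20 (0.50). With 1.71% of filtered genes lower and 2.66% higher by that fold, lists of this size would hold few such genes in any case, so these counts are no result about the lists. The probe sets used here sum over exons, so the splice forms of Tnnt1, Tnnt2 and Tnnt3 were not analysed here.

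Among 31 regulators of fibre type, 18 were above 0 and 11 below, with a median of 0.04. Of the 29 that passed the filter, 1 was lower and 1 higher by 1.5-fold, beside 1.71% and 2.66% of all filtered genes. In a list of this size these counts are no result about the list. Prox1, a homeobox factor of slow fibres, was lower by 1.65-fold, at 7.05 in wild-type muscle and 6.33 in transgenic muscle (-0.72). It passed the level filter of 6.79 through the wild-type array only, so its difference is weakly measured. Hdac4, a deacetylase that restrains MEF2 factors, was higher by 1.75-fold, at 9.37 and 10.18 (0.81). Vgll2, a cofactor of TEAD factors, was just inside 1.5-fold at -0.58. Ppargc1a, the coactivator PGC-1alpha, was at -0.05. Vgll2 and Ppargc1a were picked for naming after their values were seen.

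Other features of the samples also differed between the arrays, and their part in the result was not tested. For comparison with the counts below, 5332 of the 9974 filtered genes were above 0. By at least 1.5-fold, 2.66% of them were higher and 1.71% lower. Of 11 white adipocyte markers, 10 were higher and 7 by at least 1.5-fold, and their summed level was 12.65 in wild-type muscle and 13.21 in transgenic muscle. Lep, leptin, was highest (3.20) and Pnpla2 lowest (-0.09). Lep, Pck1 and Slc7a10, all past 1.5-fold, passed the level filter through the transgenic array only. Of 12 fibroblast markers 11 were higher, and the sum went from 13.97 to 14.22. Of 12 smooth muscle markers 8 were higher, with a sum of 14.41 and 14.57 that rests mostly on Des, which skeletal fibres make (without it, an alternative chosen after seeing the data, 7 of 11 and 12.72 and 12.81). Of 9 Schwann cell and nerve markers 7 were higher (sum 11.55 and 11.96). Only 4 of the 9 passed the filter, and 3 were under the olfactory receptor percentile in both arrays. Of those that passed, Egr2 and Sox10 did so through the transgenic array only. The sum rests mostly on Pmp22 (11.24 and 11.64). Of 10 macrophage markers 7 were higher (sum 11.32 and 11.43), of 10 endothelial markers 4 (sum 12.99 and 12.89) and of 4 red blood cell markers 1 (sum 9.76 and 9.50). The filter was passed by 6 of the macrophage and 2 of the red blood cell markers. Among 15 genes of embryonic, regenerating or denervated fibres, Ankrd1 (1.83), Ncam1 (1.14) and Runx1 (1.04) were higher by over 1.5-fold, Actc1 was lower, and the median was 0.09. Of the 15, 8 were above 0 and 5 below. Cardiac Tnnt2, which immature muscle also makes, was at 0.23. The list's range of -1.12 to 1.83 is too wide for a place within it to link Tnnt2 with these genes.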

How the data were processed

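Hindlimb muscle RNA was measured on 1 whole-transcript array per genotype. The deposited log2 intensities of 35556 probe sets were made by the authors with RMA in Partek, per the submitters' processing notes. For versions, exact steps and the array's genome build, the sources used here give nothing. RMA compresses large ratios and gives no call of presence. The number of arrays limits the precision.

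Gene names came from the platform annotation (21789 probe sets with 1 symbol, 1621 with several, 12146 with none), and the brightest probe set stood for a gene. Differences, a 1.5-fold rule of size, a level filter and ranks among 501 genes of like level were computed with Python 3.11.15, pandas 2.3.3 and statsmodels 0.14.6, without a test. The steps were tested on simulated differences. The members, lists and pairs were chosen with earlier results of these data known. Named are the troponins, list members past 1.5-fold above the filter, each list's extremes, the 3 most alike genes, chromosomal neighbours and Stx4a. In the cell type marker lists only some such members and extremes are named. Any other gene, including those of the slow and fast pairs, was picked after its values were seen. Planned protein comparisons were not made here. Alternatives were 3 other scalings (median centring, loess with span 0.3 and 3 iterations, quantile), 2 other probe set rules, 3 other level filters and a 2-fold threshold.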

Additional observations from a re-analysis of the deposited data

How the results depend on the processing

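No paired analysis was possible because each genotype has 1 array, and leaving out an array leaves no comparison. Of the 75 recomputed values of the 8 troponin differences and their 7 ratios within subunits, 37 could not move by construction (1 probe set per gene, or a common scaling that cancels in a ratio). The other 38 moved by less than the local spread. For the fast genes, the cardiac genes and the cardiac-to-fast ratios this says little, since their own values were near or below that spread. The Tnnt2-to-Tnnt3 shift went from 0.19 to 0.0975 once the loess trend was removed, and still counted as unmoved. Tnnc1 ran from -1.03 to -1.0, Tnni1 from -1.02 to -0.99 and Tnnt1 from -0.92 to -0.89. The medians of the gene lists moved by less than their genes' spread in all 45 values, but this bar is loose. The medians lay between -0.185 and 0.09, so one could reach 0 and still count as unmoved. That of the fast-fibre list turned from 0.015 to -0.005. The 2 other probe set rules left the list medians unchanged, and median centring moved each by the same -0.02. The 3 slow genes remained past 1.5-fold under each of the 3 scalings. At 2-fold, 2 were counted as deposited and after median centring, and 1 after loess or quantile normalization. Over all genes above the filter, a 2-fold threshold left 38 of the 171 lower genes and 86 of the 265 higher ones. The spread between mice is unknown, so none of this bears on whether other mice would differ in the same way, and Tnni3 was too dim to read.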
